A study of Mus musculus with 847 samples.

Results

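Genes that mark oligodendrocyte precursors or the whole oligodendrocyte lineage were followed across the mouse brain and across adult life. The 9 genes were Pdgfra, Cspg4, C1ql1, Lhfpl3, Vcan, Tnr, Olig1, Olig2 and Sox10, taken by name from the 21076 genes of the deposited count table, and all 9 had a row in it. Bulk RNA sequencing covered 15 regions of 59 C57BL/6JN mice in 847 libraries, with 1 library for each region of a mouse and 51 to 59 libraries for a region. The mice carried no allele or treatment named in the labels. Groups of 5 females and 5 males were aged 3, 12, 15 and 18 months, the 21-month group had 5 females and 6 males, and the 26-month and 28-month groups were 5 and 3 males. Each library came from homogenised tissue, so it holds the RNA of every cell type in the dissected piece.

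Oligodendrocyte precursors are the cycling glia of the adult brain, and they give rise to the cells that wrap axons in myelin. They respond to platelet-derived growth factor through the receptor encoded by Pdgfra and carry the chondroitin sulphate proteoglycan encoded by Cspg4. Olig1, Olig2 and Sox10 encode transcription factors that stay on in myelinating oligodendrocytes, whereas the other 6 genes are best known from the precursor stage. Several members are also made outside the lineage: Pdgfra by fibroblasts, Cspg4 by pericytes, and C1ql1 by neurons of the inferior olive in the medulla.

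In the GENCODE annotation of GRCm38, the build named in the submitters' processing notes, the members lie on 7 chromosomes. The 2 that share a locus are Olig2 (chr16:91225457-91228677) and Olig1 (chr16:91269772-91271933), both on the plus strand with 41.1 kb between them. Pdgfra (chr5:75152292-75198215) and Lhfpl3 (chr5:22746059-23275597) are on the plus strand of chromosome 5. Tnr (chr1:159523769-159931729) and Cspg4 (chr9:56865033-56899870) are also on the plus strand. The minus strand holds C1ql1 (chr11:102939264-102946688), Vcan (chr13:89655312-89742509) and Sox10 (chr15:79154908-79165240). Pdgfra, Lhfpl3, Tnr and Olig1 each overlap exons of an annotated gene on the opposite strand, and in these unstranded libraries such reads cannot be told apart.

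Sequence just upstream of the annotated start is shown for Olig2, a member whose level followed the myelin genes, and for Tnr and Lhfpl3, which were among the precursor genes. The RefSeq table (GRCm38.p6) matched 6 of the 9 members. It had no entry for Olig1, Sox10 and C1ql1. All printed windows are on the plus strand, 5′ to 3′, and capitals mark a match, on either strand, to the E-box hexamers CAGCTG and CAGATG, of the kind bound by basic helix-loop-helix factors such as Olig1 and Olig2, or to the hexamers ACAAAG and AACAAT, of the kind bound by SOX factors.
Olig2 (chr16:91225300-91225456): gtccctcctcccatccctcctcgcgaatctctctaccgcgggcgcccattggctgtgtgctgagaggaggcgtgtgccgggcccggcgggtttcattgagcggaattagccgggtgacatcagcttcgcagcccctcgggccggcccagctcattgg
Lhfpl3 (chr5:22745804-22746053): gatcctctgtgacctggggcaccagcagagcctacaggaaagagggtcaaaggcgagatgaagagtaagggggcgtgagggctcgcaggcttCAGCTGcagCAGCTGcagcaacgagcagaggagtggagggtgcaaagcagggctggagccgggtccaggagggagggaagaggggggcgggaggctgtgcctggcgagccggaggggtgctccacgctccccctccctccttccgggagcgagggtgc
Tnr (chr1:159523519-159523728): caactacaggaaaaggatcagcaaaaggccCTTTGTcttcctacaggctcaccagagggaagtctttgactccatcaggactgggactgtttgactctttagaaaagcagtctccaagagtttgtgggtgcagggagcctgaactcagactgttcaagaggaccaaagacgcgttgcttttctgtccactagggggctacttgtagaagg
The Lhfpl3 window held the CAGCTG hexamer at 2 places and the Tnr window held ACAAAG on the minus strand. The Olig2 window held AACAAT on the minus strand, past the printed stretch, which stops at the GENCODE gene start. Among the windows not shown, that of Pdgfra held CAGATG, and those of Cspg4 and Vcan held none of the 4 hexamers. Among 32817 RefSeq windows of 250 bases before a start, 13.0% held CAGCTG, 14.5% CAGATG, 16.5% ACAAAG and 9.42% AACAAT. A match describes these letters and is no evidence of binding.

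The median library held 6716032 reads, the smallest 481444 and the largest 26756735. Levels are given in CPM, the reads of a gene scaled to 1000000 reads in its library. The labelled tissues were checked against marker genes. Olfactory bulb had the neuroblast markers at a median sum of 572 CPM and corpus callosum the 10 mature oligodendrocyte markers at 22503 CPM. The choroid plexus libraries carried 6 epithelial markers at a median sum of 6003 CPM, with mature oligodendrocyte markers at 13670 CPM and 6 neuronal markers at 5474 CPM beside them. Epithelial markers also reached 18452 CPM in 1 corpus callosum library and 9020 CPM in 1 subventricular zone library. The entorhinal cortex library of mouse 52 stood apart, with mature oligodendrocyte markers at 23671 CPM against a median of 1580 CPM in the other 50 libraries. Its Sox10 was 136 CPM against a highest value of 83.5 CPM in the others, and its Olig1 was 312 CPM against 178 CPM. The age slope of Sox10 in that region was 0.029 log2 units per month with this library and 0.014 without it, and no member was called there in either fit (edgeR).

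Each member had its own regional order, and the precursor genes did not share one (plot of levels by region). Of the 126 pairs of regions that were neighbours in a member's order, 57 differed by a paired permutation test within mice at an adjusted p under 0.05. The order was made from the same libraries, so the direction of a step was set beforehand. The test was run for the members alone, so no share over other genes stands beside these counts. Lhfpl3 and Tnr had the most separated orders, with 11 and 9 of 14 neighbour pairs apart, and Cspg4 had the least, with 2 of 14.

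Pdgfra, the growth factor receptor, was highest in hypothalamus, where libraries ran from 16.2 to 30.0 CPM with a median of 21.8 CPM (n = 55). It was lowest in cerebellum, at 1.33 to 9.84 CPM with a median of 6.01 CPM (n = 58), and these ranges did not overlap. Hypothalamus was followed by choroid plexus and entorhinal cortex, and neither neighbouring step passed the test. The medulla had a long upper tail, with a median of 12.4 CPM and a highest library of 34.6 CPM.

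Cspg4, the surface proteoglycan, gave a similar picture at its extremes. It was highest in hypothalamus, with a median of 19.7 CPM and a range of 11.2 to 26.2 CPM, and lowest in cerebellum, with a median of 6.43 CPM and a range of 2.48 to 10.9 CPM. These ranges did not overlap. The 9 highest regions, from hypothalamus to anterior hippocampus, were not separated at any neighbouring step.

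C1ql1, a secreted complement-like protein, was most variable in the medulla, where libraries spanned 10.3 to 233 CPM around a median of 30.2 CPM. The pons had a median of 34.0 CPM, and the step between these regions did not pass (adjusted p = 0.605, permutation test), whereas pons exceeded entorhinal cortex in 44 of 47 mice. Cerebellum was again lowest, with a median of 4.41 CPM.

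Lhfpl3, a tetraspan membrane protein of the LHFP-like family, spanned a wide range of levels. Thalamus had a median of 126 CPM and a range of 83.9 to 166 CPM, and motor cortex a median of 15.7 CPM and a range of 11.8 to 20.1 CPM. The ratio of these medians was 8.05, beside 7.70 for the highest and lowest medians of C1ql1.

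The matrix genes had different orders. Vcan, which encodes the proteoglycan versican, was highest in corpus callosum with a median of 18.9 CPM, then in subventricular zone with 14.6 CPM. Corpus callosum exceeded subventricular zone in 43 of 54 mice by 0.31 ± 0.38 log2 units (SD; adjusted p = 9e-05, permutation test). Pons was lowest for Vcan at 4.82 CPM. Tnr, which encodes the matrix glycoprotein tenascin-R, was highest in anterior hippocampus with a median of 75.1 CPM, and pons and medulla were lowest with 19.2 and 19.4 CPM.

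The 3 transcription factor genes were highest in medulla, pons and corpus callosum. Olig1 had medians of 267 CPM in medulla and 264 CPM in pons, which did not differ (adjusted p = 0.794, permutation test), and Olig2 had 52.2 and 47.0 CPM in the same regions, which did (adjusted p = 0.00222, permutation test). Sox10 was highest in corpus callosum, with a median of 127 CPM, ahead of pons with 122 CPM, a step that did not pass. Visual cortex had the lowest medians for all 3, at 68.8 CPM for Olig1, 14.1 CPM for Olig2 and 22.9 CPM for Sox10. By mean log2 CPM cerebellum was below visual cortex for Olig2, a step that did not pass (adjusted p = 0.946, permutation test). The step from entorhinal to visual cortex for Sox10 did not pass either (adjusted p = 0.440, permutation test). Per kilobase of annotated exon, median levels in corpus callosum were 99.1 CPM per kb for Olig1, 41.8 for Sox10, 15.5 for Olig2, 8.96 for Lhfpl3 and 7.40 for C1ql1. Tnr, Pdgfra, Vcan and Cspg4 followed at 2.92, 1.63, 1.30 and 1.30 CPM per kb.

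**Figure D1:**
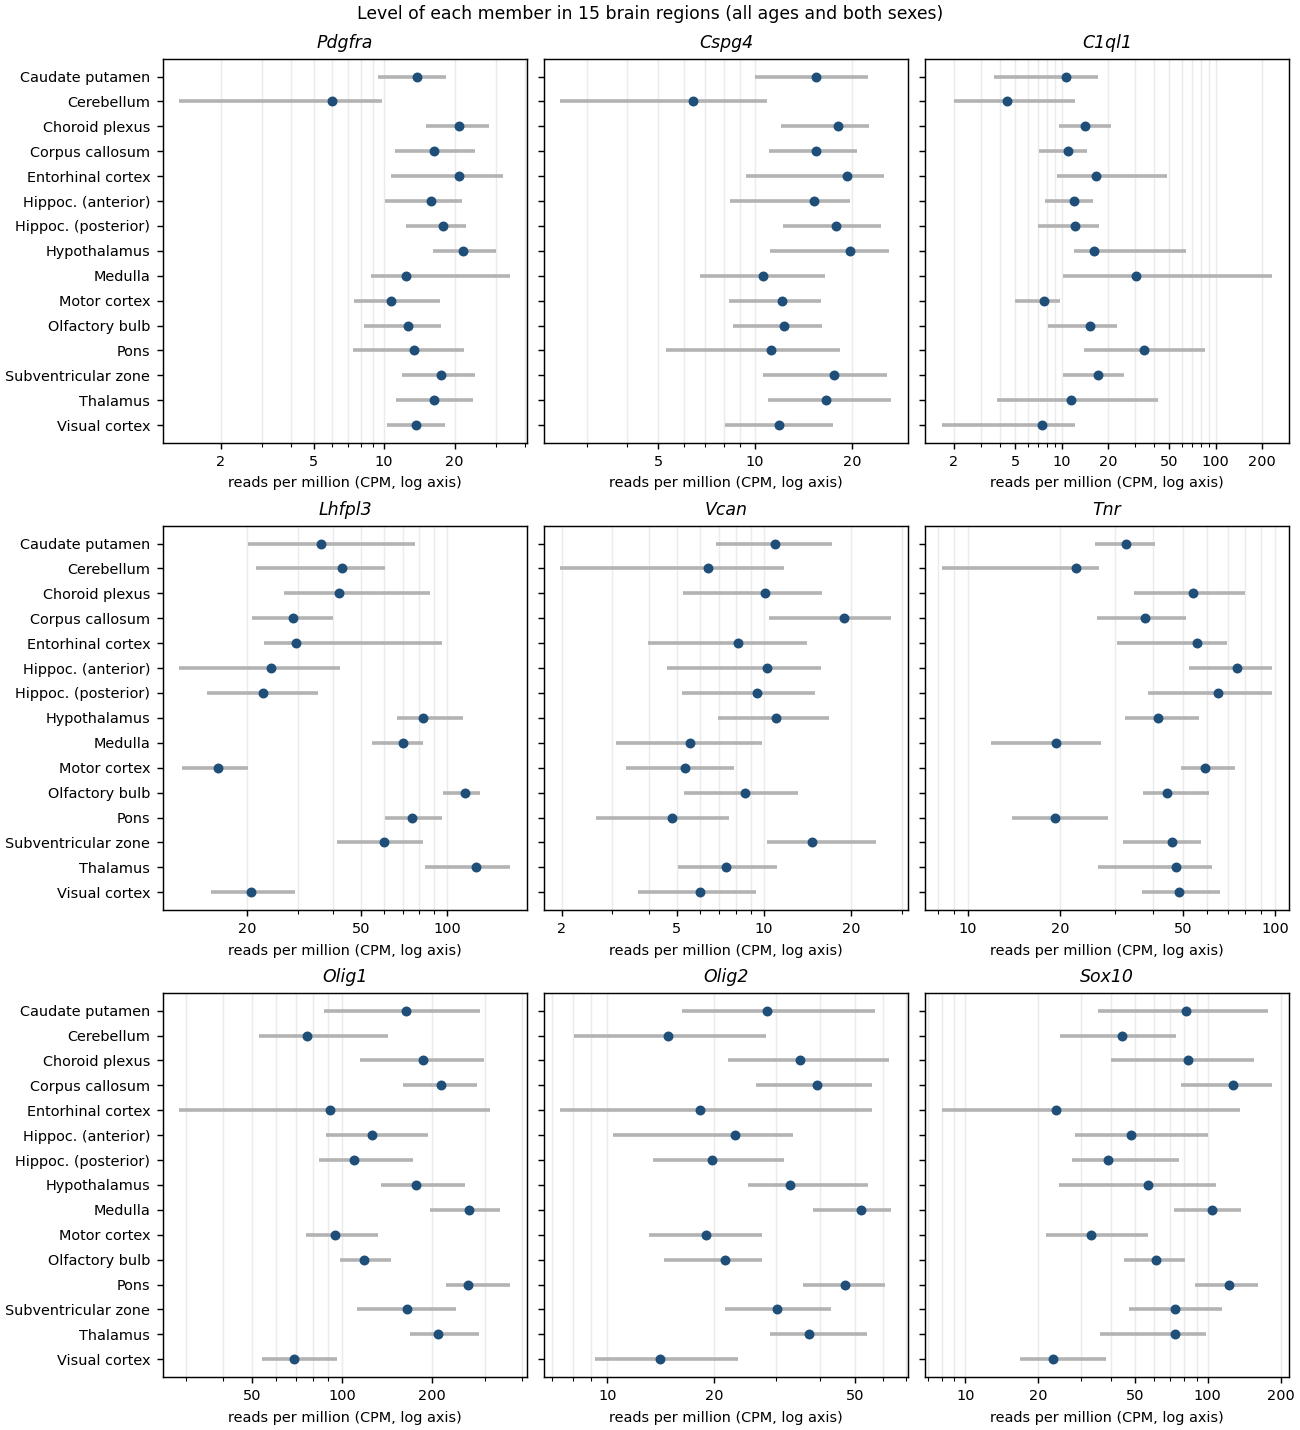
Level of each of the 9 genes in 15 brain regions over all ages and both sexes, in CPM on a log axis with its own range in each panel. Points are medians and grey bars run from the lowest to the highest library; Lhfpl3 spans from a median of 15.7 CPM in motor cortex to 126 CPM in thalamus.

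Change with age was first measured as a slope in log2 units per month, fitted for each region with sex as a covariate, and a pair of gene and region was called at an adjusted p under 0.05. Of the 135 pairs of member and region, all of which passed the filter on low counts, 8 rose and 5 fell. The 13 calls are 9.63% of the pairs, and over all genes and regions 10.6% of tests were called (5.87% rising and 4.71% falling), so the members were called about as often as other genes. In the regions with a called member, the share of all genes called was 13.4% in caudate putamen, 20.2% in choroid plexus, 17.8% in corpus callosum and 9.39% in anterior hippocampus. It was 10.3% in medulla, 16.6% in motor cortex, 15.6% in olfactory bulb and 7.77% in subventricular zone. The median slope of the 135 pairs was 0.00044 log2 per month, and the medians over all genes lay between -0.00060 and 0.00062 in the 15 regions. Sox10 gave 6 of the 8 rises. Cspg4, C1ql1, Lhfpl3 and Olig2 changed in 0 of 15 regions (edgeR), with 2, 1, 1 and 2 regions at an unadjusted p under 0.05. DESeq2 also called 0 regions for each. Over all genes and regions 50611 of 214677 edgeR tests had an unadjusted p under 0.05. Other settings gave calls for Cspg4, Olig2 and C1ql1. With the stromal markers as a covariate, Cspg4 rose in caudate putamen (slope 0.013, edgeR adjusted p = 0.0172) and Olig2 fell in olfactory bulb (slope -0.0090, edgeR adjusted p = 0.0481). With the mature oligodendrocyte markers as a covariate, C1ql1 fell in hypothalamus (slope -0.027, edgeR adjusted p = 0.0197). In bulk tissue, fewer cells of a type and less RNA per cell cannot be told apart, and the same holds for a rise.

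**Figure D2:**
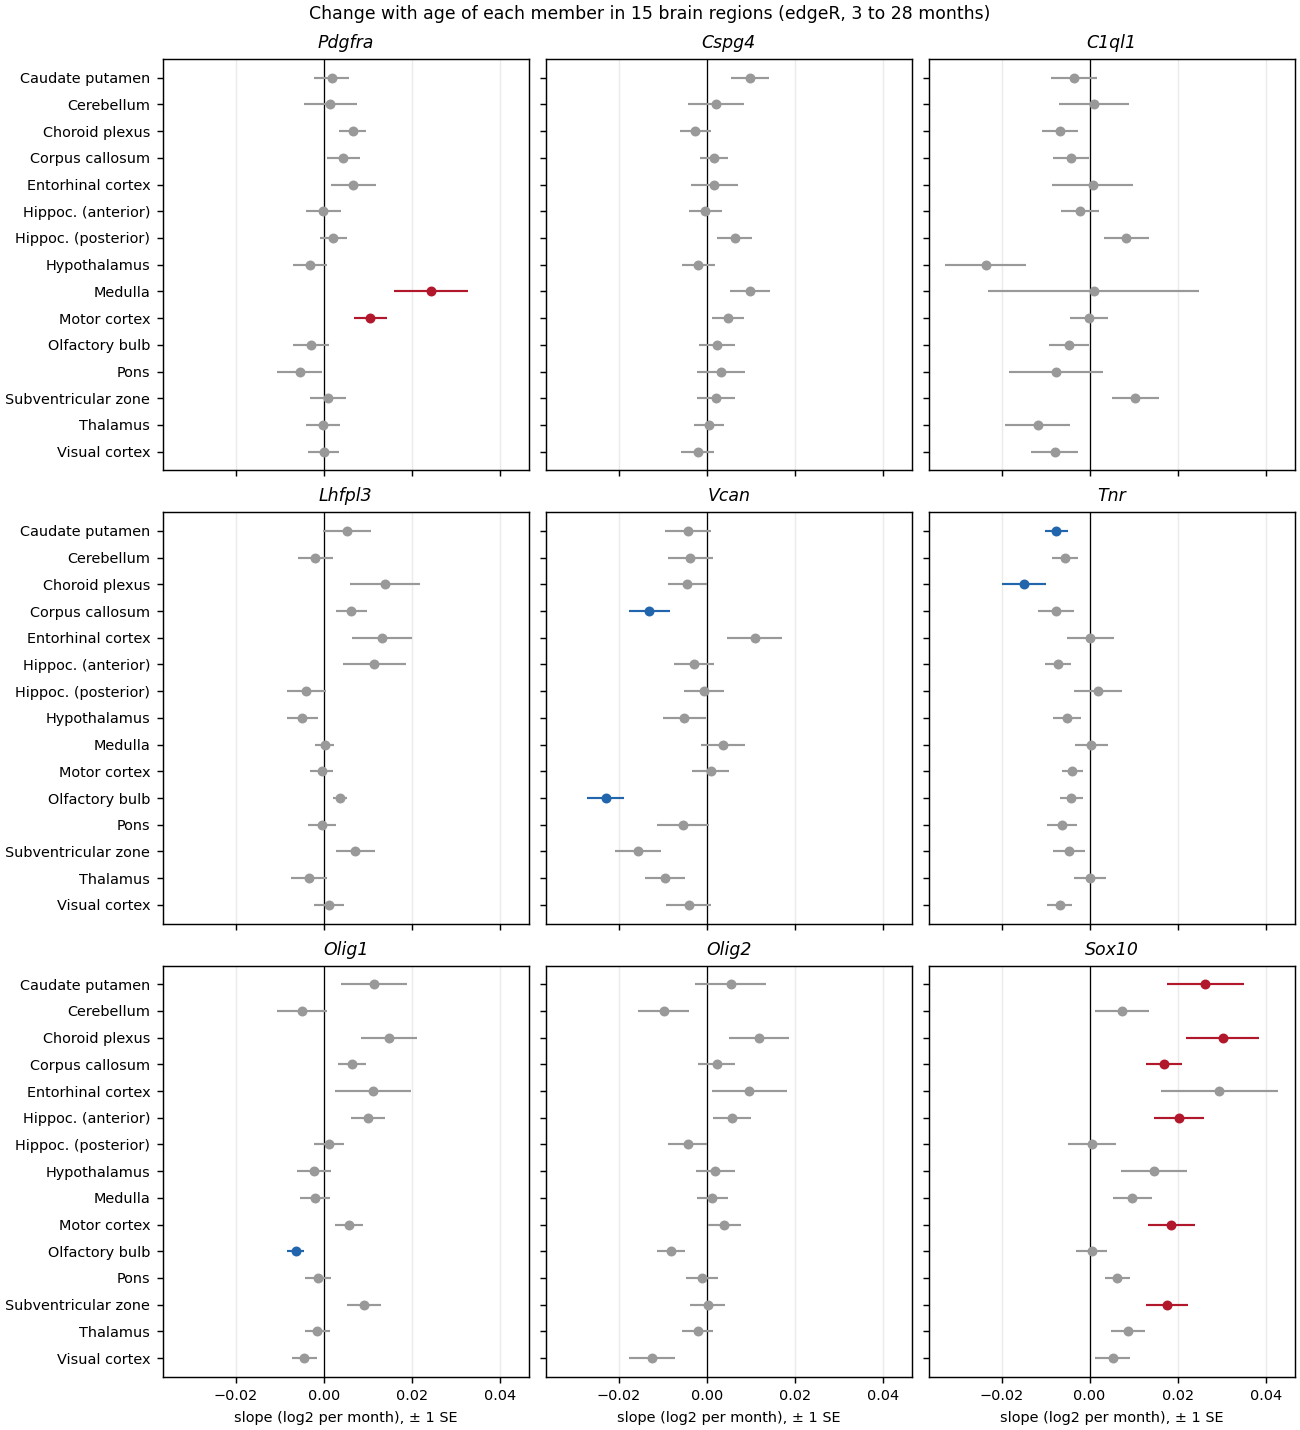
Slope of each gene with age in 15 regions, in log2 units per month, with bars of 1 SE from the edgeR fit over all libraries of a region. Red points rose and blue points fell at an adjusted p under 0.05, and grey points did not pass. Sox10 has all 15 slopes above 0, of which 6 passed.

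Among the precursor genes, Pdgfra rose in 2 regions. In motor cortex, Pdgfra libraries at 3 months ran from 8.99 to 12.0 CPM with a median of 9.94 CPM (n = 10), and at 28 months the 3 libraries were at 10.5, 10.8 and 12.6 CPM. The groups overlapped, and the slope was small at 0.011 ± 0.0038 log2 per month (SE; edgeR adjusted p = 0.0459). That call was lost under 8 of 12 other settings, with adjusted p-values from 0.0212 to 0.136.

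In medulla, Pdgfra libraries at 3 months ran from 8.98 to 24.6 CPM with a median of 12.0 CPM (n = 10). The 3 libraries at 28 months were at 16.4, 33.7 and 34.6 CPM, so 2 of them exceeded every 3-month library. The slope was 0.024 ± 0.0083 log2 per month (SE; edgeR adjusted p = 0.0481), and 28 months exceeded 3 months by 1.24 ± 0.25 log2 units (SE; edgeR adjusted p = 0.000288), in a comparison that called 25% of all genes in medulla. Without the 28-month mice the slope was 0.0089 with an adjusted p of 0.631 (edgeR). The call was lost under 7 of 13 other settings, that one among them. With 12 mice left out in turn, it was lost without mouse 37, 1, 3, 2 or 57, of which only mouse 57 was 28 months old.

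High Pdgfra in the medulla also followed the numbers of the mice in the labels. All 9 medulla libraries above 20 CPM came from mice numbered 47 to 58, across 5 ages. The 14 medulla libraries of mice 46 to 59 had a median of 24.2 CPM and a lowest value of 13.0 CPM, and the 44 libraries of mice 1 to 45 had a median of 11.7 CPM and a highest value of 15.9 CPM. This split was chosen after the values were seen, and the labels do not say whether the numbers mark dissection or sequencing days. In these medulla libraries the 6 fibroblast and stromal markers summed to medians of 46.9 CPM in mice 46 to 59 and 54.3 CPM in mice 1 to 45. The 7 pericyte and vascular muscle markers summed to 107 and 81.1 CPM. The cell source of the higher Pdgfra was not tested. In the same libraries C1ql1 had a median of 14.0 CPM in mice 46 to 59 against 46.8 CPM in the others, although the highest C1ql1 library, at 233 CPM, was that of mouse 47. Vcan had medians of 7.70 and 5.18 CPM. With the 14 libraries left out, the Pdgfra slope in medulla was 0.0044 (edgeR adjusted p = 0.661). Sox10 instead passed there with a slope of 0.017 (edgeR adjusted p = 0.00479). The split removed every library above 20 CPM, so for Pdgfra this fit cannot test the slope.

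**Figure D3:**
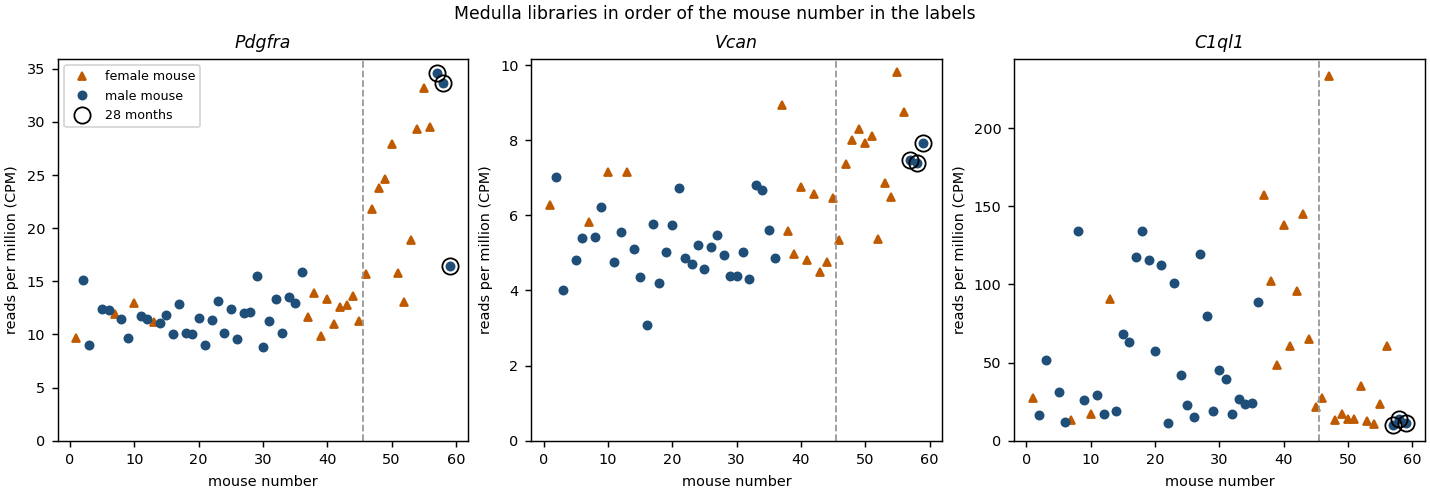
Levels of Pdgfra, Vcan and C1ql1 in 58 medulla libraries, in CPM, in order of the mouse number in the labels. Triangles are females, circles are males, rings mark the 28-month mice and the dashed line divides mice 45 and 46; every Pdgfra value above 20 CPM lies to its right.

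Vcan fell in 2 regions. In olfactory bulb, the 3-month libraries ran from 9.05 to 13.2 CPM with a median of 11.1 CPM (n = 10). At 26 months they ran from 6.84 to 8.67 CPM (n = 5), and at 28 months the 3 libraries were at 6.18, 6.85 and 7.86 CPM, all below the lowest 3-month library. The slope was -0.023 ± 0.0042 log2 per month (SE; edgeR adjusted p = 6.23e-05), which over 25 months comes to -0.57 log2 units. The fall was already present at 12 months, at -0.32 ± 0.095 log2 units against 3 months (SE; edgeR adjusted p = 0.0352), and each of the 6 later ages passed, from -0.32 at 12 to -0.66 at 28 months. These 6 comparisons share the 3-month libraries. From 12 months on the slope in olfactory bulb was -0.010 with an adjusted p of 0.468 (edgeR), so a further fall after 12 months was not detectable. The call held under all 12 other settings and with each of 12 mice left out.

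Olfactory bulb also receives new neurons through life, and 2 marker lists are given beside the Vcan values. The 5 neuroblast markers summed to a median of 605 CPM at 3 months and 564 CPM at 28 months, and the 6 stromal markers to 253 and 136 CPM. With the stromal markers as a covariate, the Vcan slope was -0.023 (edgeR adjusted p = 0.000121). The part of neuroblasts in the fall was not tested.

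In corpus callosum, Vcan ran from 18.1 to 27.6 CPM at 3 months with a median of 20.6 CPM (n = 10), and the 28-month libraries were at 11.3, 17.6 and 18.4 CPM, so the groups overlapped. The slope was -0.013 ± 0.0047 log2 per month (SE; edgeR adjusted p = 0.0463), and the call was lost under 6 of 12 other settings. Subventricular zone, next to it in the order of Vcan levels, had a slope of -0.016 that just missed the threshold (edgeR adjusted p = 0.0538).

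Tnr fell in 2 regions. In choroid plexus libraries, Tnr ran from 40.9 to 79.5 CPM at 3 months with a median of 65.8 CPM (n = 10) and from 34.8 to 56.4 CPM at 21 months with a median of 47.7 CPM (n = 11). At 28 months the values were 49.7, 50.3 and 70.0 CPM, within the 3-month range. The slope was -0.015 ± 0.0050 log2 per month (SE; edgeR adjusted p = 0.0274). Across these 57 libraries Tnr had r = -0.87 with the mean of the mature oligodendrocyte markers, whose sum had a median of 10333 CPM at 3 months and 18340 CPM at 21 months. With that mean as a covariate the Tnr slope was -0.0012 (edgeR adjusted p = 0.862).

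In caudate putamen, Tnr ran from 30.7 to 40.7 CPM at 3 months with a median of 35.4 CPM (n = 9), and at 28 months it was 27.0, 31.2 and 31.4 CPM. The slope was -0.0076 ± 0.0026 log2 per month (SE; edgeR adjusted p = 0.0440), the smallest of the called falls but for Olig1. It was lost under 5 of 12 other settings, among them the 28-month mice left out (adjusted p = 0.175).

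Sox10, the transcription factor that drives myelin genes, rose in 6 regions and had a slope above 0 in all 15. In corpus callosum the 3-month libraries ran from 77.3 to 130 CPM with a median of 112 CPM (n = 10). The 4 libraries at 26 months ran from 131 to 145 CPM and the 3 at 28 months were at 136, 145 and 185 CPM, all above the highest 3-month library. The slope was 0.017 ± 0.0040 log2 per month (SE; edgeR adjusted p = 0.00153), or 0.42 log2 units over 25 months, and it passed under all 12 other settings and with each of 12 mice left out.

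In choroid plexus libraries Sox10 ran from 39.9 to 114 CPM at 3 months with a median of 64.9 CPM (n = 10), and at 28 months it was 95.0, 108 and 113 CPM, within the upper part of that range. Its slope of 0.030 ± 0.0083 log2 per month (SE; edgeR adjusted p = 0.00744) was the steepest called for a member. In motor cortex the 3-month median was 29.6 CPM and the 28-month libraries were at 35.3, 43.3 and 44.4 CPM, with a slope of 0.019 ± 0.0053 (SE; edgeR adjusted p = 0.0105).

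Subventricular zone, anterior hippocampus and caudate putamen followed, with Sox10 slopes of 0.018, 0.020 and 0.026 log2 per month and edgeR adjusted p-values of 0.0145, 0.0133 and 0.0331. In each of these 3 regions the ranges at 3 and at 28 months overlapped. The calls were lost under 2, 5 and 4 of 12 other settings in that order, with adjusted p-values up to 0.232, 0.201 and 0.391. The caudate putamen call was also lost without mouse 37 or mouse 57. Those in choroid plexus and motor cortex were lost under 1 of 12 settings each, males alone. Mice 46 to 59 include all 28-month mice. Their Sox10 medians were 1.41, 1.35 and 1.34 times those of mice 1 to 45 in choroid plexus, motor cortex and anterior hippocampus. In corpus callosum, subventricular zone and caudate putamen the ratios were 1.12, 1.11 and 1.01. Age and mouse number were not separated in these fits.

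Sox10 moved with the amount of myelin RNA in a library, and the mature oligodendrocyte markers were therefore also entered as a covariate. Sox10 then rose in 10 regions: caudate putamen, cerebellum, choroid plexus, corpus callosum, posterior hippocampus, hypothalamus, motor cortex, pons, subventricular zone and thalamus. Its slopes in these regions ran from 0.0073 in choroid plexus to 0.015 in motor cortex, so the choroid plexus slope was smaller than the 0.030 without the covariate. Anterior hippocampus no longer passed (slope 0.0063, edgeR adjusted p = 0.201). The mature oligodendrocyte markers themselves, without a covariate, rose in 13 and fell in 7 of 150 pairs of gene and region.

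Olig1 and Olig2 share a locus, and over the whole age range neither had a called rise. A difference between their slopes and that of Sox10 was not tested. With the stromal markers as a covariate, Olig1 rose in 4 regions, caudate putamen, anterior hippocampus, motor cortex and subventricular zone. Without a covariate, Olig1 fell in olfactory bulb, from 108 to 134 CPM at 3 months (median 125 CPM, n = 10) to 101, 108 and 122 CPM at 28 months, with overlapping ranges. The slope there was -0.0064 ± 0.0019 log2 per month (SE; edgeR adjusted p = 0.0176). Olig2 in olfactory bulb had a slope of -0.0081 that missed the threshold (edgeR adjusted p = 0.0603) and passed with depth covariates or without mouse 2, mouse 16 or mouse 40, and at 18 months it was 0.26 log2 units below 3 months (edgeR adjusted p = 0.0154).

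**Figure D4:**
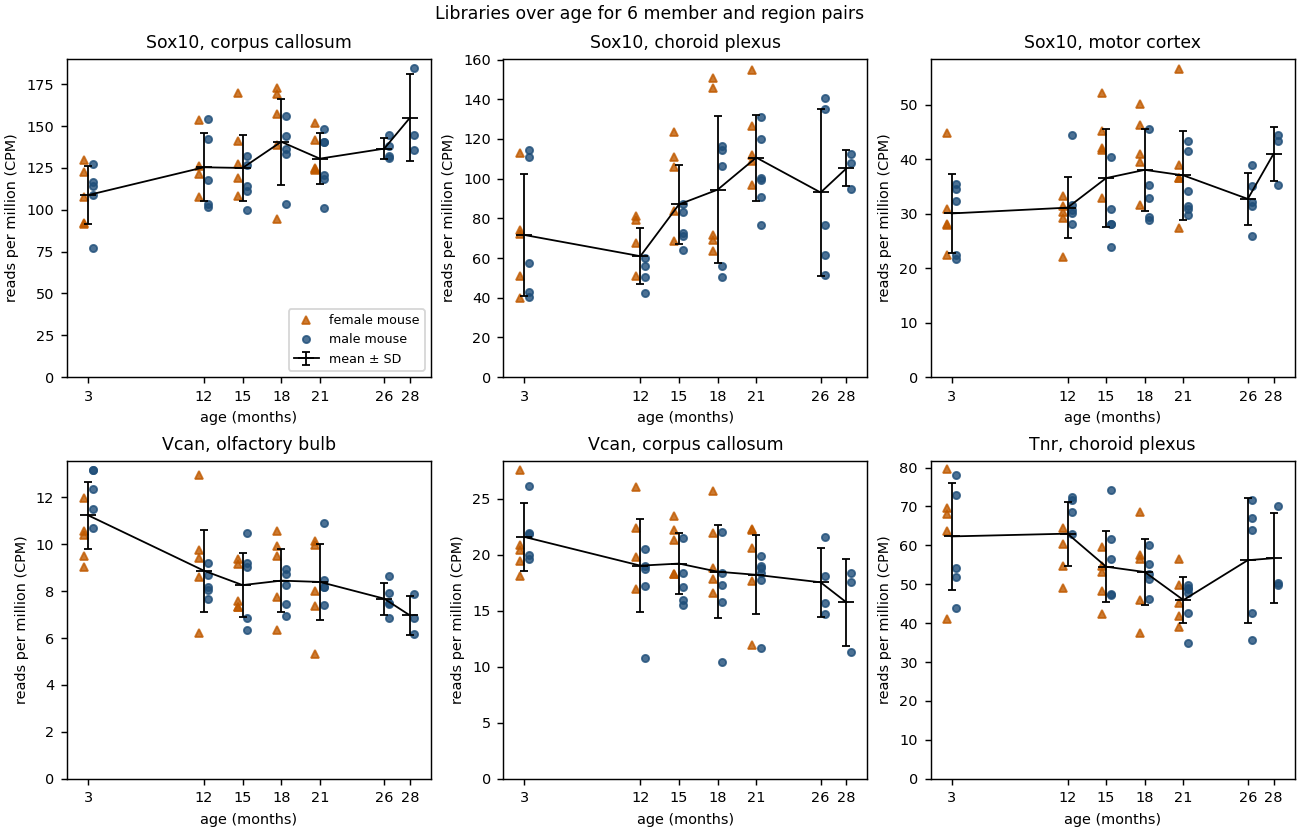
Single libraries against age in months for 6 pairs of gene and region, in CPM on axes that start at 0. Triangles are females, circles are males, and the black line joins means with bars of 1 SD; Vcan in olfactory bulb drops between 3 and 12 months, and Sox10 in corpus callosum is above every 3-month library at 26 and 28 months.

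The comparison of each later age with 3 months gave few calls for the members. All 12-month and 26-month mice carry numbers below 16, and all 28-month mice carry numbers above 56. Mice 16 to 56 hold 3, 15, 18 and 21 months alone. At 12, 26 and 28 months, age therefore cannot be told apart from blocks of mouse numbers, here and in the slopes from 12 months on. The slopes over all ages use the same mice and share this limit. At 12 months 3 of 135 pairs passed (1.35% over all genes and regions), at 15 months 1 (1.11%) and at 18 months 4 (2.46%). At 21 months 5 pairs passed (6.18% over all genes and regions), at 26 months 1 (3.7%) and at 28 months 6 (5.77%). Besides those described, Pdgfra in pons at 12 months was 0.58 ± 0.12 log2 units lower than at 3 months (SE; edgeR adjusted p = 0.0138), with 7.38 to 13.8 CPM in 6 libraries against 11.9 to 19.1 CPM in 9. No other later age passed for Pdgfra in pons. Sox10 in thalamus was 0.36 log2 units above 3 months at 12 months (edgeR adjusted p = 0.00601) and 0.31 above at 21 months (edgeR adjusted p = 0.0143), without a called slope.

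From 12 months on, 5 pairs rose and 1 fell, and over all genes and regions 3.84% of slopes passed (2.45% rising and 1.39% falling). Cspg4 in pons rose by 0.040 ± 0.0083 log2 per month (SE; edgeR adjusted p = 0.00187), from 7.38 to 11.1 CPM in 6 libraries at 12 months to 12.1, 15.2 and 16.2 CPM at 28 months. The 3-month Cspg4 libraries in pons, at 9.14 to 18.0 CPM, spanned the 28-month values. Pdgfra in medulla, Sox10 and Olig1 in choroid plexus, and Olig1 in anterior hippocampus also rose. C1ql1 in hypothalamus fell by 0.055 log2 per month (edgeR adjusted p = 0.0309), from 13.6 to 64.4 CPM with a median of 17.8 CPM in 9 libraries at 12 months to 12.0 and 12.6 CPM in 2 libraries at 28 months. Without mouse 57, the source of 1 of those 2 libraries, the C1ql1 slope was -0.053 with an edgeR adjusted p of 0.0727.

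Whether a member's slope differed between regions was tested in a joint fit over all libraries. Equal slopes were rejected for 4 of 9 members, and 22.8% of the 16527 genes tested were called by the same rule. The edgeR adjusted p-values were 0.0107 for Pdgfra, 0.0152 for Vcan, 0.0221 for Sox10 and 0.0254 for Olig1. With limma voom and the mouse as a replicate block, Vcan, Sox10 and Olig1 stayed under the threshold and Pdgfra had an adjusted p of 0.226. Tests of corpus callosum or of subventricular zone against the other 14 regions called 0 of 9 members each by edgeR and by limma voom, where 1.44% and 1.72% of all genes passed. At an unadjusted p under 0.05 edgeR gave 0 members in the first and 1, Vcan, in the second.

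The sexes were compared at 3 to 21 months, the ages both have. At 3, 15, 18 and 21 months all males carry numbers from 16 to 36 and all females from 37 to 56. At these ages sex therefore cannot be told apart from blocks of mouse numbers, for levels or slopes, in any region. Only at 12 months do both sexes share a block, the numbers below 16. Males were lower in 6 of 135 pairs and higher in 0 (edgeR), with 21 and 2 pairs at an unadjusted p under 0.05. Over all genes and regions 2.71% of tests passed, 1.47% lower and 1.24% higher in males, and 27839 of 211769 tests had an unadjusted p under 0.05. Of the 6 pairs, 3 lay in the medulla, where 22.5% of all genes differed by sex. There Pdgfra had a median of 13.4 CPM and a range of 9.67 to 33.2 CPM in 24 females, against 11.5 CPM and 8.77 to 15.9 CPM in 26 males. The difference was -0.53 ± 0.12 log2 units (male minus female, SE; edgeR adjusted p = 0.000758). Vcan differed there by -0.39 and Tnr by -0.21 log2 units, with edgeR adjusted p-values of 0.00029 and 0.00625. Of the 14 mice numbered 46 to 59 in medulla, 11 were females, and the 3 males were 28 months old and outside this comparison. All mice numbered 46 or higher in this comparison were therefore females. Leaving these mice out kept 39 of 50 libraries. The differences of Pdgfra, Vcan and Tnr were then -0.064, -0.24 and -0.092, with edgeR adjusted p-values of 0.754, 0.245 and 0.544. That split was chosen from the Pdgfra values and removed every library above 20 CPM, so for Pdgfra it cannot test the sex difference.

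In posterior hippocampus, where 4.21% of all genes differed by sex, Olig1 and Sox10 were lower in males. Olig1 ranged from 98.4 to 172 CPM in 24 females with a median of 123 CPM and from 83.4 to 146 CPM in 26 males with a median of 102 CPM, a difference of -0.24 ± 0.049 log2 units (SE; edgeR adjusted p = 0.00583). Sox10 differed by -0.32 ± 0.077 log2 units (SE; edgeR adjusted p = 0.0211). Mature oligodendrocyte markers in the same libraries summed to medians of 5754 CPM in females and 4455 CPM in males. With their mean as a covariate the differences were -0.13 for Olig1 and -0.084 for Sox10, with edgeR adjusted p-values of 0.168 and 0.375. Over all ages, medians in posterior hippocampus of mice 46 to 59 were 1.19 times those of mice 1 to 45 for both genes. Sex and mouse number were not separated there, as in the other regions. Lhfpl3 in motor cortex, where 3.54% of all genes differed, had a median of 16.6 CPM in females and 15.1 CPM in males (edgeR adjusted p = 0.0488), and the call was lost with 7 of 10 single mice left out. The age slope of the sexes differed in 0 of 135 pairs (edgeR), with 7 pairs at an unadjusted p under 0.05. Over all genes and regions 12529 of 211769 tests had an unadjusted p under 0.05. Of all tests 0.0727% were called (0.0184% with the higher slope in males and 0.0543% with the lower).

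Members were then correlated over the 847 libraries after the mean of each region was removed, as a description, since libraries of a mouse, depth and dissection are shared. Among the transcription factor genes, Olig1 had r = 0.81 with Sox10 and r = 0.73 with Olig2, and Olig2 had r = 0.59 with Sox10. Within single regions the last pair ranged from -0.021 to 0.88. The 15 pairs of precursor genes had a median r of 0.13 and a range of -0.23 to 0.33, with the highest value for Pdgfra and Cspg4. Lhfpl3 stood between, with r = 0.45 with Olig1, and Tnr had r = -0.24 with Sox10.

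Within regions, the median correlation with the mean of the mature oligodendrocyte markers was 0.86 for Sox10, 0.81 for Olig1 and 0.57 for Olig2. For the precursor genes it was 0.42 for Lhfpl3, 0.25 for C1ql1, 0.13 for Cspg4, 0.10 for Pdgfra, -0.025 for Vcan and -0.27 for Tnr. Of the 8 marker lists, Cspg4 had its highest median with the pericyte and vascular muscle markers (0.29, from -0.12 to 0.55 over regions). Pdgfra had medians of 0.27 with the fibroblast and stromal markers, 0.24 with the astrocyte markers and 0.20 with the pericyte markers, each with a wide range over regions.

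**Figure D5:**
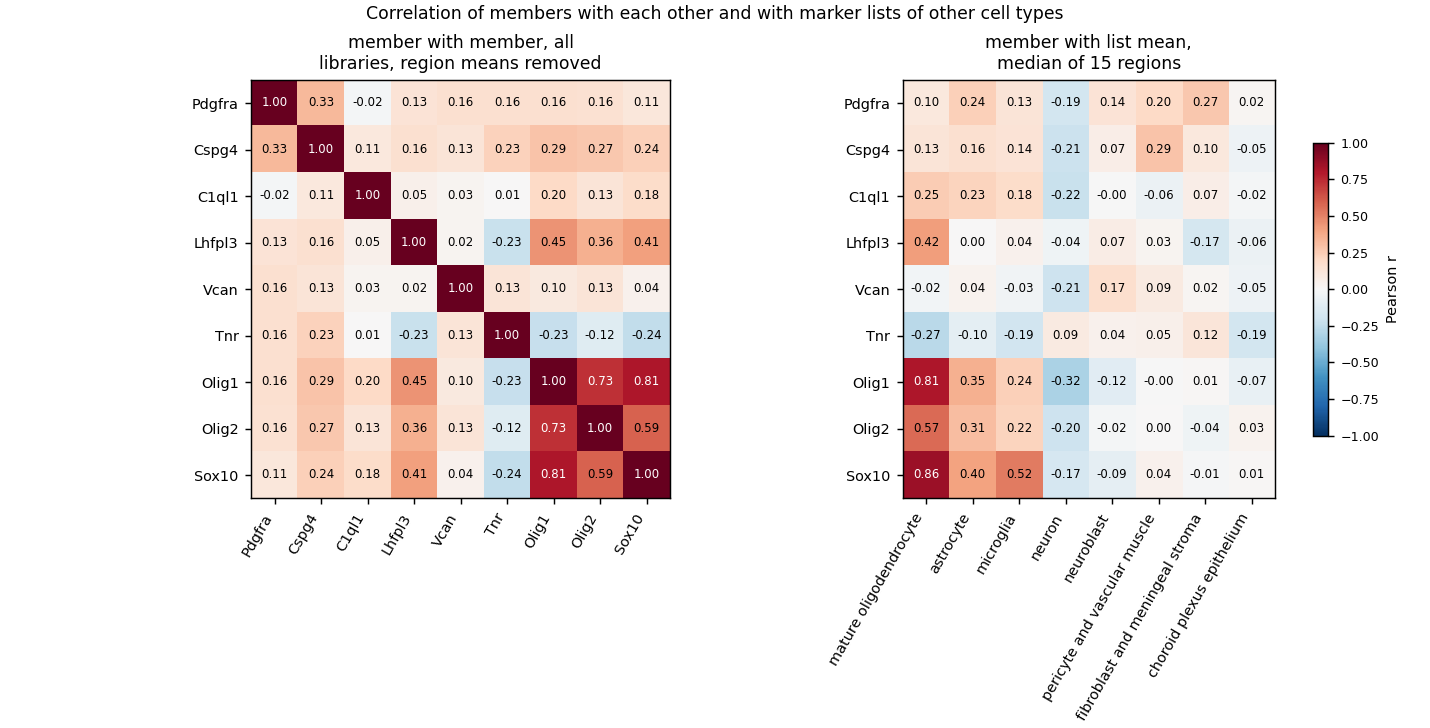
Pearson correlations of the 9 genes with each other over 847 libraries after region means were removed (left), and with the mean log2 CPM of marker lists, as the median of 15 regions (right). Red is positive and blue negative; Olig1, Olig2 and Sox10 form the red block and share it with the mature oligodendrocyte list.

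The genes most like each member repeated this division. For Olig1 they were Pllp, Cnp, Prr18, Qdpr and Csrp1 (r from 0.81 to 0.84), and for Sox10 Gatm, Pllp, Plekhb1, Prr18 and Bcas1 (r from 0.86 to 0.88), where Cnp and Pllp encode myelin proteins. For Olig2 they were Olig1, Prr18, Gpr37, Cnp and Gatm, with r = 0.73 for Olig1 and 0.64 to 0.65 for the others. Precursor genes had looser companions. Pdgfra was nearest to Fam91a1, Scd2, Tmx4, Prex1 and Tmem47 (r from 0.48 to 0.51) and Cspg4 to Fasn, Aatk, Ptprz1, Epas1 and Ptprb (r from 0.37 to 0.39).

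C1ql1 was nearest to Ano2, Ddc, Calb1, Stac and Htr5b, with r from 0.39 to 0.53. Lhfpl3 was nearest to Klhdc8a, Plcb4, Dnm3, Slc6a11 and Slc6a9 (r from 0.53 to 0.61), of which Slc6a11 and Slc6a9 encode transporters of GABA and glycine. Tnr was nearest to Ptprs, Ppfia2, Dmxl2, Stxbp5 and Astn1 (r from 0.54 to 0.55). Vcan had the weakest companions, Pde4dip, Trim2, D5Ertd579e, Top2b and Hip1, at r from 0.29 to 0.34.

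Other genes of the lineage were read from lists chosen with earlier results of these data known. Gpr17, a receptor of precursors that have committed to differentiate, fell in all 15 regions, with slopes from -0.061 to -0.022 log2 per month. In the same list of 6 committed-precursor genes, Bcas1, an early myelin gene, rose in 8 regions and the kinase gene Fyn fell in 5, and the list gave 11 rises and 20 falls in 90 pairs with a median slope of -0.00087. Among 10 other precursor genes there were 6 rises and 15 falls in 150 pairs, with Neu4 falling in 7 regions, Cacng4 falling in 3 and Rlbp1 rising in 6.

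The partners of the receptor and of the matrix genes gave contrasting counts. Of 5 genes for PDGF ligands and the partner receptor, Pdgfc fell in 3 regions and the other 4, Pdgfa, Pdgfb, Pdgfd and Pdgfrb, in none of 15 (edgeR). The 7 matrix partners gave 13 rises and 19 falls in 105 pairs: Ncan, which encodes the proteoglycan neurocan, fell in 11 regions, Tnc, which encodes tenascin-C, fell in 4, and Hapln2, which encodes a link protein of nodes of Ranvier, rose in 10. Among 3 C1q-like genes, C1ql3 fell in 2 of 15 regions, C1ql2 rose in 1 and fell in 2 of 14, and C1ql4 changed in none of the 4 regions that tested it.

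Among 12 further lineage transcription factor genes, 20 rises and 13 falls were called in 180 pairs. Nkx6-2 and Myrf, factors of myelinating cells, rose in 9 and 6 regions, and Sox5, a factor of precursors, fell in 3. Of the mature oligodendrocyte genes, Ermn rose in 5 regions and Mbp in 3, and Cldn11 fell in 4. The 6 proliferation genes gave 1 rise and 18 falls in the 60 pairs that passed the filter, with a median slope of -0.012. Cenpf and Mki67 fell in 4 regions each, with Mki67 rising in 1, and Ccnb1 fell in 3 of 5.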

How the data were processed

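The 847 libraries were unstranded mRNA sequencing from RNeasy RNA, Smart-Seq2 cDNA and Nextera XT, per the labels. The submitters' processing notes name Trim Galore 0.3.7, STAR 2.5.3a, DESeq2 and the build GRCm38; the counting program and annotation are not given in the sources used here. The deposited values are whole-number counts per gene symbol, as the authors made them, with totals of 481444 to 26756735 reads. Members and gene lists were chosen with earlier results of these data known.

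Each region was fitted with edgeR 4.0.16 in R 4.3.3 (TMM, filterByExpr, quasi-likelihood test), with Benjamini-Hochberg adjustment over all genes of the region and a threshold of 0.05. A joint fit tested slopes between regions. Neighbouring regions were compared by 2-sided sign flips within mice, with 100000 resamples and adjustment over 126 pairs; 1e-05 is the smallest p these can give. Correlations used log2 CPM with a prior count of 2. Named context genes were the 3 of each list called in the most regions in 1 direction, and likeness was ranked over 14180 genes of at least 1 CPM. Alternatives used limma 3.58.1 and DESeq2 1.42.0. The fits were tested on simulated data, with age slopes steeper than any called for a member over the whole age range. Recovery of smaller slopes was not tested. Mice are separate animals, and mouse numbers pair regions: after removal of group means, libraries of the same mouse had a median r of 0.029 across regions and those of other mice of its group -0.0073. Each edgeR SE is the absolute slope or difference divided by the square root of its F statistic. With 1 library per mouse and region, it mixes spread between mice with that of dissection, amplification and counting. Reads carry no molecular identifiers. Python 3.11.15 was used for levels and plots.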

Additional observations from a re-analysis of the deposited data

Results flagged for a closer look

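The age slopes of 4 members differed between regions in the joint edgeR fit, with adjusted p-values of 0.0107 for Pdgfra, 0.0152 for Vcan, 0.0221 for Sox10 and 0.0254 for Olig1. With limma voom, Pdgfra did not pass in any setting run. Vcan did not pass in mice 16 to 56 alone (limma voom adjusted p = 0.058). Nor did it pass without the entorhinal library of mouse 52 (limma voom adjusted p = 0.0545).

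Single libraries stood apart from their age group in 7 cases, by a gap test (Dixon) at the 95% level over the age groups of 4 to 10 libraries of the called pairs. Chance flags about 1 in 20 groups, and 68 groups were tested. In medulla at 18 months Pdgfra was 33.2 CPM in mouse 55, against 9.84 to 21.8 CPM in the others. In motor cortex Pdgfra was 17.3 CPM in mouse 10 at 12 months and 15.2 CPM in mouse 51 at 18 months, against highest other values of 12.1 and 12.2 CPM. Mouse 10 also had the highest Vcan in olfactory bulb at 12 months, 13.0 CPM against at most 9.73 CPM. Olig1 in olfactory bulb was 145 CPM in mouse 1 at 12 months, against at most 124 CPM. Sox10 was 44.5 CPM in motor cortex of mouse 3 and 114 CPM in subventricular zone of mouse 9, both at 12 months, against at most 33.2 and 84.5 CPM.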

How the results depend on the processing

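Of the single called slopes, Vcan in olfactory bulb and Sox10 in corpus callosum passed under every setting run, and no called value changed sign. The 8 rises and 5 falls with age became 5 and 2 in mice 16 to 56 alone, in males alone and at 3 to 21 months alone, which hold fewer samples. Mice 16 to 56 also hold 3, 15, 18 and 21 months alone. With the stromal markers as a covariate 13 rose, and without the 28-month mice, chosen after seeing the data, 3 fell. Leaving out single mice gave 6 to 9 rises and 2 to 6 falls, with the fewest falls without mouse 17 and 3 without mouse 57. From 12 months on, the 5 rises and 1 fall became 0 and 0 in mice 16 to 56 and 1 and 0 in males, and 4 to 7 and 0 to 1 with single mice left out (0 falls without mouse 57).

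Against 3 months, males alone gave 1, 2, 2 and 3 called pairs at 12, 18, 21 and 26 months in place of 3, 4, 5 and 1. RLE size factors gave 2 at 26 months, and mice 16 to 56 gave 2 at 15 months in place of 1. With single mice left out, 15 months gave 1 to 2 (mouse 18), 26 months 1 to 6 (mouse 2) and 28 months 2 to 7 in place of 6 (mouse 57). For the later ages 7 mice were left out in turn and the other 5 planned were not run.

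The 6 sex differences became 3 without the medulla libraries of mice 46 to 59, a setting chosen after seeing the data, as were that split for the age slope, the oligodendrocyte covariate for the sex difference and TMM levels for the order of regions. At the extremes of that order, TMM levels put choroid plexus above hypothalamus for Pdgfra (mean log2 CPM 4.388 against 4.376). They put pons below medulla for Tnr (4.309 against 4.344). Cerebellum was lowest for Olig2 by mean log2 CPM with and without TMM. The joint fit with limma voom called unequal slopes for 3 of 9 members both with the replicate block on mouse and without it, and for 2 in mice 16 to 56 alone and without the entorhinal library of mouse 52, where the cause was not tested; corpus callosum and subventricular zone contrasts stayed at 0 under the block. Of the 57 neighbour pairs, 10 differed in the 3-month mice alone, which are fewer. Of the 45 most-like genes, 24 were also found by Spearman rank correlation. Median reads in a library ran from 58 for Vcan to 887 for Olig1, which limits the precision of a single library's value.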
